A study of Mus musculus with 11 samples.

Results

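The antioxidant and redox defence genes described here are 36 genes taken by symbol from a table of 24718 genes: the glutathione peroxidases, the peroxiredoxins with sulfiredoxin, the thioredoxin system, glutathione synthesis and conjugation, the superoxide dismutases with catalase, the NRF2 switch, and the ferritins and metallothioneins. All 36 were in the table and passed the filter on low counts. They were measured by bulk RNA-seq in tdTomato-sorted bone marrow cells that the labels call mesenchymal stem and progenitor cells, from female mice of the genotype Lepr-Cre;LSL-tdTomato+/-. The DOX4X group (4 mice, aged 8 to 10 weeks at treatment) had 4 intravenous doses of doxorubicin at 5 mg/kg, a week apart. The DOX1X group (3 mice, labelled young adult) had a single intravenous dose of 10 mg/kg. The PBS group (4 mice) had 4 intravenous injections of phosphate-buffered saline, so that DOX1X mice had fewer injections than their controls. Cells were collected 8 weeks after treatment in every group, and the design asks what the drug leaves behind in skeletal progenitors. In all groups the reporter was switched on by Cre under the leptin receptor gene, which marks cells that express this gene now or did so earlier, and sorting was on the reporter alone.

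Doxorubicin is an anthracycline that traps topoisomerase II on DNA and that also cycles electrons onto oxygen, making superoxide. Cells remove superoxide with superoxide dismutases, and the hydrogen peroxide that results with catalase, glutathione peroxidases and peroxiredoxins, which are recharged by glutathione and thioredoxin at the cost of NADPH. The transcription factor NRF2 (Nfe2l2), held down by KEAP1 until oxidants or electrophiles modify it, drives many of these genes. Ferritins bind iron, and metallothioneins bind zinc and copper. Of these metals, iron and copper would otherwise feed radical chemistry.

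A sequence feature divides the peroxidases and reductases on the list. Some place selenocysteine in the active site, encoded by a TGA codon that elsewhere means stop, and others use cysteine at that place. The sequences below are shown because the list mixes both kinds, and the capitals mark the active-site codon in coding sequence of the GENCODE M21 transcripts, read 5′ to 3′.
Gpx1: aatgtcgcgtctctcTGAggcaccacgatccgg
Gpx3: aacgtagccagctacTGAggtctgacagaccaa
Gpx4: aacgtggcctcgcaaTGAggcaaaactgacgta
Gpx7: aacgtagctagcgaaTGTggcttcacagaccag
Gpx8: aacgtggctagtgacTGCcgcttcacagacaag
Txnrd1: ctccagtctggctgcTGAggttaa
Txnrd2: actgtgactggttgcTGAggctaa
Gpx1, Gpx3 and Gpx4 carried TGA at codons 47, 73 and 129 of their reading frames, while Gpx7 carried TGT at codon 56 and Gpx8 TGC at codon 79. Txnrd1 and Txnrd2 carried TGA at codons 612 and 526, followed by a glycine codon and the stop codon that ends the frame.

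Total counts were 31129352 to 36888310 per DOX4X library, 33496356 to 42002065 per DOX1X library and 29540422 to 42784036 per PBS library. The 16 stromal markers, among them Lepr and Cxcl12, summed to 71117 to 84220 CPM in DOX4X (counts scaled to library size with TMM factors), 70114 to 88052 CPM in DOX1X and 75890 to 87392 CPM in PBS, and none was at 0. Markers of other marrow cells were present at lower levels and differed between groups: the erythroid list summed to 377 to 912 CPM in DOX4X, 308 to 725 CPM in DOX1X and 185 to 481 CPM in PBS, and the endothelial list to 691 to 1205 CPM in DOX4X, 278 to 480 CPM in DOX1X and 196 to 778 CPM in PBS. A score over 4 blood-cell lists (erythroid, B lineage, neutrophil, and macrophage with monocyte) averaged 0.21 ± 0.45 in DOX4X (SD, n = 4), 0.37 ± 0.61 in DOX1X (n = 3) and -0.48 ± 0.38 in PBS (n = 4), on a centred log2 scale. By the column names, DOX4X 1 to 4 and DOX1X 3 came from flow cell 2, and DOX1X 1 and 2 and PBS 1 to 4 from flow cell 1. DOX4X and PBS therefore never shared a flow cell, and for these groups drug and flow cell cannot be told apart except through the 3 DOX1X libraries. The library called PBS 4 has a title that names doxorubicin while its treatment label and library name are those of a control; calls that change without it are given both ways.

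By level per length, the list spanned nearly the whole range of the transcriptome. Among 17352 genes ranked by CPM per kilobase of exon (lengths from GENCODE M21) in PBS, Gpx3 (a glutathione peroxidase that is secreted) ranked 4 at 4628 CPM per kilobase. The ferritin heavy chain gene Fth1 ranked 18 at 1560 CPM per kilobase and the light chain gene Ftl1 ranked 33 at 996 CPM per kilobase. Gpx8, an endoplasmic reticulum peroxidase, followed at rank 95, and Txnip, the inhibitor of thioredoxin, at rank 161. At the other end, Mt2 stood at 5.13 CPM per kilobase, Txnrd2 at 3.71 CPM per kilobase and Slc7a11, the cystine carrier that feeds glutathione synthesis, at 0.094 CPM per kilobase, which was rank 16690. The 36 genes together took 11605 to 13692 CPM per DOX4X library, 14795 to 15566 CPM per DOX1X library and 14213 to 16262 CPM per PBS library. Every DOX4X sum lay under every sum of the other groups, and Gpx3 was the gene with the most CPM in it. The sums averaged 12741 CPM in DOX4X, 15235 CPM in DOX1X and 15405 CPM in PBS. Gpx3 alone averaged 4768 CPM in DOX4X, 6913 CPM in DOX1X and 7378 CPM in PBS. The lower DOX4X sum is thus mostly the value of Gpx3 and not a fall of the whole list.

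After 4 doses, none of the 36 genes passed the test against PBS (edgeR's quasi-likelihood test over all 11 libraries, adjusted p under 0.05 over 17838 genes), where 0.146% of all genes tested did. DESeq2 called 3 of the 36 (Srxn1, Gpx3 and Gpx1), beside 4.02% of all genes to which it gave an adjusted p, and limma-voom called 1 (Srxn1), beside 0.314%. At an unadjusted p under 0.05 there were 9 of the 36, or 25%, against 13.9% of all genes. Of these, 5 were higher (Gpx1, Txn1, Mt2, Txnip and Txnrd2), where 6.0% of all genes were, and 4 were lower (Srxn1, Gpx3, Ftl1 and Gstm1), where 7.85% were. The groups did not overlap for 6 of the 36, or 16.7%, against 7.85% of all genes, with 3 higher (3.17% of all genes) and 3 lower (4.68%). The members, and the related lists below, were chosen with earlier results of these data known. Their shares beside all genes, here and later, are not independent of those results. The median log2 fold change of the list was -0.04, beside 0.01 for all genes, and 29 of the 36 lay within 0.3 of 0 on the log2 scale. The list thus gave no common direction, with 16 genes higher and 20 lower. The p-values measure the spread between mice that the labels number as biological replicates. In a bulk sort, fewer cells of a type and less RNA per cell cannot be told apart.

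**Figure D1:**
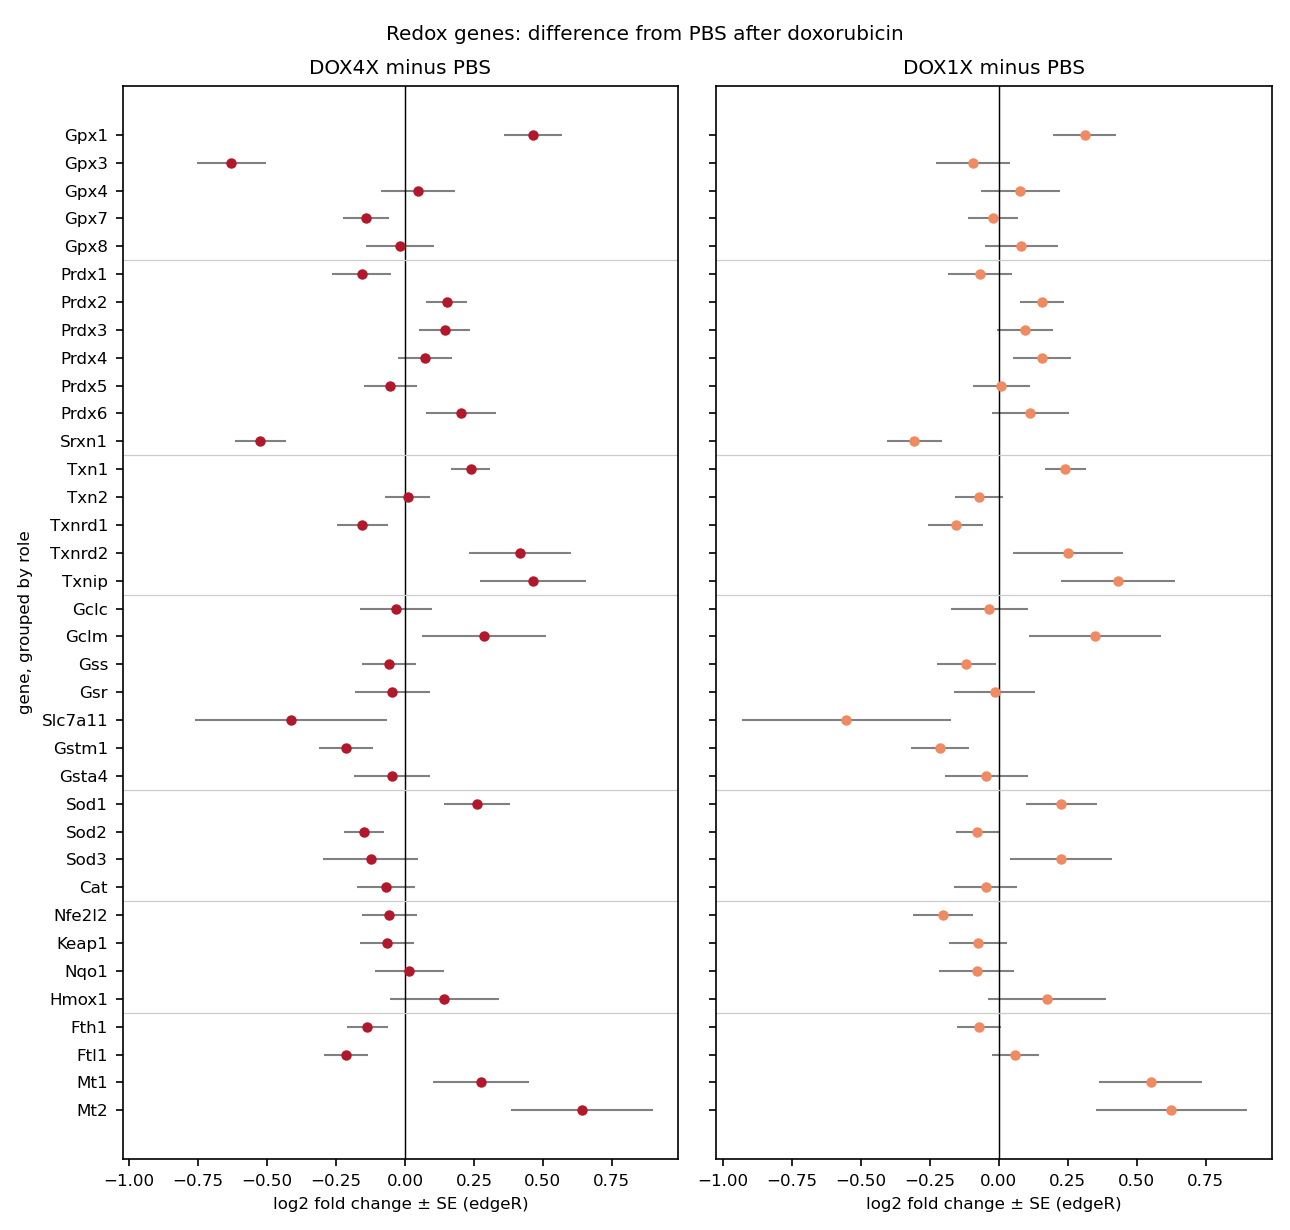
Log2 fold change ± SE (edgeR) of the 36 genes, ordered by role, for DOX4X minus PBS (left) and DOX1X minus PBS (right); grey lines separate the role groups. Srxn1 lay left of 0 in both panels (-0.53 and -0.31) and Gpx1 right of 0 in both (0.46 and 0.31), while Gpx3 was at -0.63 on the left and -0.09 on the right; no gene passed the adjusted threshold, and the panels share the PBS libraries.

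The glutathione peroxidases, which reduce peroxides with glutathione, held the list's widest split. Gpx3 had 4887, 3901, 4914 and 5369.5 CPM in DOX4X, 7155, 6736 and 6849 CPM in DOX1X, and 6077, 6956, 8536 and 7940.5 CPM in PBS. All 4 DOX4X libraries were below all 7 others, while DOX1X and PBS overlapped. The log2 fold change of Gpx3 was -0.63 (SE 0.13, adjusted p = 0.092) for DOX4X against PBS, and the 95% interval ran from -0.90 to -0.36. DESeq2 gave Gpx3 an adjusted p of 0.00019 in this comparison, and limma-voom gave 0.0502. Against DOX1X it was -0.54 (SE 0.13, adjusted p = 0.89), and for DOX1X against PBS it was -0.09 (SE 0.14, adjusted p = 0.89). Gpx1, the cytosolic member, went the other way, with 367, 364, 299.7 and 281 CPM in DOX4X, 295, 328 and 263 CPM in DOX1X, and 237, 261, 220.1 and 233 CPM in PBS. Every library of both doxorubicin groups was above every PBS library, DOX1X 3 by only a small margin over PBS 2. Its log2 fold change was 0.46 (SE 0.11, adjusted p = 0.12) for DOX4X and 0.31 (SE 0.11, adjusted p = 0.61) for DOX1X, both against PBS. By DESeq2 the DOX4X value passed (adjusted p = 0.0062), and by limma-voom it did not (adjusted p = 0.081). Once the blood-cell marker score entered the fit, the Gpx1 values were 0.31 (SE 0.12, adjusted p = 0.27) for DOX4X and 0.13 (SE 0.13, adjusted p = 0.69) for DOX1X. With flow cell as a term, the Gpx1 value for DOX4X was 0.70 (SE 0.21, adjusted p = 0.33).

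The remaining glutathione peroxidases differed less between the groups. Gpx4, which protects membrane lipids and whose loss opens the way to ferroptosis, averaged 165 ± 22.1 CPM in DOX4X, 169 ± 14.1 CPM in DOX1X and 160.1 ± 32.2 CPM in PBS (SD). Its pseudogenes Gpx4-ps1 and Gpx4-ps2 together held 11.5% to 12.6% as many counts as Gpx4 itself, so that reads may have been split between them. Gpx7 and Gpx8, which act in the endoplasmic reticulum, had log2 fold changes of -0.14 (SE 0.08) and -0.02 (SE 0.12) for DOX4X against PBS. The selenocysteine and cysteine kinds did not separate by direction, since Gpx1 and Gpx3 were on opposite sides.

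Sulfiredoxin (Srxn1), the enzyme that repairs overoxidised peroxiredoxins, had the smallest p of the list. It stood at 32.2, 28.9, 28.8 and 36.5 CPM in DOX4X, 36.1, 37.3 and 37.0 CPM in DOX1X, and 43.3, 46.3, 50.7 and 41.6 CPM in PBS. Each of the 7 doxorubicin libraries was below each PBS library, and the DOX4X group lay lowest, with DOX4X 4 inside the DOX1X range. For DOX4X against PBS the log2 fold change was -0.53 (SE 0.09, adjusted p = 0.060), with a 95% interval from -0.73 to -0.32. For DOX1X against PBS it was -0.31 (SE 0.10, adjusted p = 0.60), and for DOX4X against DOX1X it was -0.22 (SE 0.10, adjusted p = 1.00). The call for Srxn1 turned on the library whose labels disagree and on the tool: without PBS 4 it passed for DOX4X against PBS (log2 fold change -0.57, edgeR adjusted p = 0.036), as it did with all libraries in limma-voom (adjusted p = 0.039) and DESeq2 (adjusted p = 0.00012). With a term for flow cell the log2 fold change was -0.54 and the adjusted p was 0.42, and within flow cell 1 the value for DOX1X against PBS was -0.31.

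Srxn1 is a textbook target of NRF2, whose binding site is the antioxidant response element, and its promoter is shown for that reason. The capitals mark matches to the element's core, TGACNNNGC or TGAGNNNGC on either strand, in the RefSeq window on mouse build GRCm38.p6, chr2:152105274-152105573, plus strand, 250 bases before to 50 after the start site.
Srxn1: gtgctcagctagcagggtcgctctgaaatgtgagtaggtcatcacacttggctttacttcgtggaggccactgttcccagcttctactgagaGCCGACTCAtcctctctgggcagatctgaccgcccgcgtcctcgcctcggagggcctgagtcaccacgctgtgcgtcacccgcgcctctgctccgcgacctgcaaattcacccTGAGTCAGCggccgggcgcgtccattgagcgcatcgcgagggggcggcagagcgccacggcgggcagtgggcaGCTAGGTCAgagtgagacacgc
The core was found 3 times in this window, first bases at -158, -45 and 29 from the start site. Of the 36 genes, 30 had a promoter in the RefSeq table and 9 of them held the core (Gclm, Mt2, Nfe2l2, Prdx1, Slc7a11, Sod1, Srxn1, Txn2 and Txnrd1). Counted by promoter, 9 of the 37 promoters of these genes held it, beside 27.8% of all 32851 promoters. A match is a run of letters and not a shown binding site.

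The peroxiredoxins, which reduce peroxides through a reactive cysteine, showed small differences beside Srxn1. Their log2 fold changes for DOX4X against PBS ran from -0.16 for Prdx1 (SE 0.11) to 0.20 for Prdx6 (SE 0.13). Prdx2, abundant in red cells as well as in the cytosol of other cells, was at 0.15 (SE 0.07, adjusted p = 0.40) for DOX4X and 0.16 (SE 0.08, adjusted p = 0.72) for DOX1X, both against PBS. With the blood-cell marker score in the fit, the DOX4X value of Prdx2 was 0.14. The mitochondrial Prdx3 was at 0.14 (SE 0.09) and the secretory pathway form Prdx4 at 0.07 (SE 0.10) for DOX4X against PBS. None of the 6 peroxiredoxins had groups that did not overlap in either comparison with PBS.

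**Figure D2:**
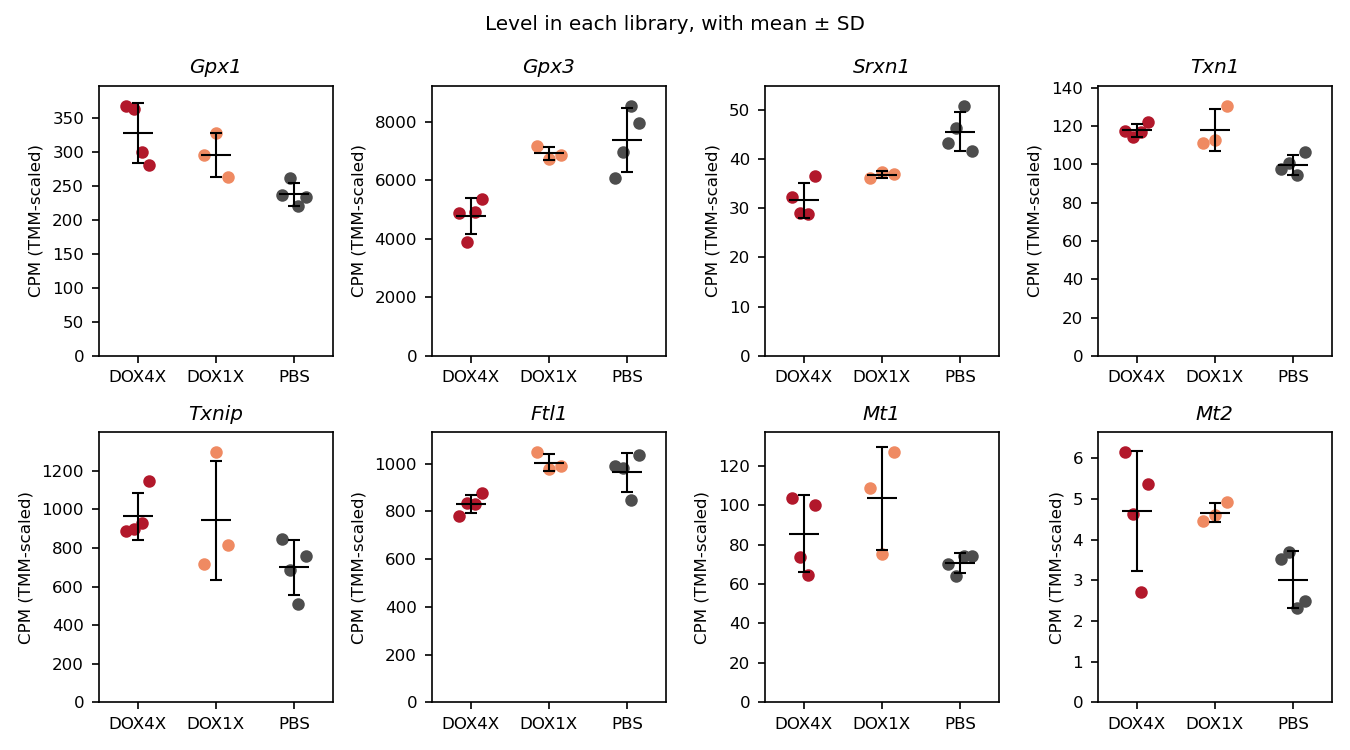
CPM of 8 genes in each library (points; TMM-scaled, axes from 0), with the mean ± SD of each group (bars) for DOX4X, DOX1X and PBS. The Gpx3 points of DOX4X (3901 to 5369.5) lie under all others, the Srxn1 points of PBS (41.6 to 50.7) lie over all others, and the Txnip point of DOX1X 2 (1295) stands apart from the other 2 DOX1X libraries.

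In the thioredoxin system, which hands electrons from NADPH to peroxiredoxins and other proteins, 4 of 5 genes were higher in DOX4X than in PBS and none passed the test. Txn1, cytosolic thioredoxin, had 118, 114, 117 and 122 CPM in DOX4X, 111, 113 and 131 CPM in DOX1X, and 97.7, 101, 94.3 and 106 CPM in PBS. The doxorubicin libraries were all above the PBS libraries, and the groups within doxorubicin overlapped. Its log2 fold change was 0.24 for both schedules against PBS (SE 0.07, adjusted p = 0.19 for DOX4X; SE 0.08, adjusted p = 0.60 for DOX1X). With flow cell as a term the Txn1 value was 0.02 (adjusted p = 0.98) for DOX4X, and within flow cell 1 it was 0.16 for DOX1X. That term rests on DOX1X 3 against DOX1X 1 and 2, so the value of 1 mouse, which had the highest Txn1 level of all libraries, cannot be told apart from flow cell. Txnip, which binds and blocks thioredoxin, had 886, 897, 931 and 1145 CPM in DOX4X, 718, 1295 and 817 CPM in DOX1X, and 845, 686, 509.6 and 758 CPM in PBS. DOX4X and PBS did not overlap, while DOX1X spanned both. The log2 fold change was 0.46 (SE 0.19, adjusted p = 0.32) for DOX4X and 0.43 (SE 0.21, adjusted p = 0.70) for DOX1X against PBS. The Txnip value was 0.76 for DOX4X with flow cell as a term, and 0.13 for DOX1X without DOX1X 2.

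The reductases that recharge thioredoxin went opposite ways. Txnrd1, the cytosolic form, averaged 111 ± 14.1 CPM in DOX4X, 111 ± 6.44 CPM in DOX1X and 123 ± 6.35 CPM in PBS, with a log2 fold change of -0.16 (SE 0.09, adjusted p = 0.49) for DOX4X against PBS. Txnrd2, the mitochondrial form, averaged 17.1 ± 2.60 CPM in DOX4X, 15.2 ± 4.19 CPM in DOX1X and 12.8 ± 2.11 CPM in PBS, and its log2 fold change was 0.42 (SE 0.19, adjusted p = 0.35). The Txnrd2 value moved with the covariates: it was 0.10 once the blood-cell marker score entered the fit, and 1.11 once flow cell did. Mitochondrial thioredoxin, Txn2, was at 0.01 (SE 0.08).

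Of the 7 genes for glutathione synthesis, recycling and conjugation, 6 were lower and 1 higher in DOX4X than in PBS, 4 of them by less than their SE. Gstm1, a glutathione transferase, averaged 224 ± 11.6 CPM in DOX4X, 224 ± 20.7 CPM in DOX1X and 259.5 ± 33.5 CPM in PBS, a log2 fold change of -0.21 for each schedule (adjusted p = 0.36 for DOX4X and 0.71 for DOX1X). The DOX4X value of Gstm1 was -0.12 with the short-gene shift in the fit and within 0.01 of 0 with flow cell as a term. The catalytic subunit of the rate-limiting ligase, Gclc, averaged 46.1 ± 9.67 CPM in DOX4X, 46.1 ± 0.08 CPM in DOX1X and 47.2 ± 3.57 CPM in PBS. Its modifier subunit, Gclm, averaged 79.6 ± 14.8 CPM in DOX4X, 83.2 ± 28.8 CPM in DOX1X and 65.2 ± 14.1 CPM in PBS, with the highest and nearly the lowest value of all libraries both in DOX1X (109 CPM in DOX1X 2 and 52.4 CPM in DOX1X 3). The log2 fold change of Gclm for DOX4X against PBS was 0.29 (SE 0.22), and it was -0.15 with the blood-cell marker score and 1.20 with flow cell in the fit. Glutathione synthetase (Gss), glutathione reductase (Gsr) and Gsta4 were at -0.06 (SE 0.10), -0.05 (SE 0.14) and -0.05 (SE 0.14). Slc7a11 had 0.47 to 1.10 CPM in DOX4X, 0.50 to 0.81 CPM in DOX1X and 0.71 to 1.33 CPM in PBS, and the 95% interval of its log2 fold change for DOX4X against PBS, from -1.17 to 0.35, was the widest of the list in that comparison.

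The superoxide dismutases and catalase gave no call. The cytosolic Sod1 averaged 42.1 ± 4.09 CPM in DOX4X, 41.2 ± 5.53 CPM in DOX1X and 35.2 ± 5.29 CPM in PBS, with a log2 fold change of 0.26 (SE 0.12, adjusted p = 0.37) for DOX4X. A term for flow cell put it at -0.06, and it was 0.03 with a covariate for the shift of short against long transcripts. The mitochondrial Sod2 averaged 102 ± 7.95 CPM in DOX4X, 107 ± 3.12 CPM in DOX1X and 113 ± 5.86 CPM in PBS, a log2 fold change of -0.15 (SE 0.07, adjusted p = 0.38) for DOX4X. The secreted Sod3 had 110.2, 112, 123 and 163 CPM in DOX4X, 167, 188 and 132 CPM in DOX1X, and 165, 155, 102 and 132 CPM in PBS, so that the 3 groups overlapped throughout. Catalase (Cat), which breaks down hydrogen peroxide in peroxisomes, was at -0.07 (SE 0.11) for DOX4X and -0.05 (SE 0.11) for DOX1X, both against PBS.

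The NRF2 switch genes Nfe2l2 and Keap1 and the reporters Nqo1 and Hmox1 gave small values at 8 weeks. Srxn1, the NRF2 target described above, was lower after both schedules (-0.53 for DOX4X and -0.31 for DOX1X). It did not pass edgeR's test over all libraries. Nfe2l2 had 154, 146, 120.3 and 153 CPM in DOX4X, 118, 146 and 125 CPM in DOX1X, and 166, 149, 145 and 137 CPM in PBS. The lowest values were in DOX1X 1 and DOX4X 3, and the groups overlapped. Its log2 fold change was -0.06 (SE 0.10) for DOX4X and -0.20 (SE 0.11, adjusted p = 0.73) for DOX1X, both against PBS. Keap1 was at -0.07 (SE 0.10) for DOX4X. The quinone reductase Nqo1, a standard NRF2 reporter, averaged 21.8 ± 2.51 CPM in DOX4X, 20.5 ± 3.24 CPM in DOX1X and 21.6 ± 2.30 CPM in PBS, and the 95% interval of its log2 fold change for DOX4X ran from -0.26 to 0.29. Haem oxygenase 1 (Hmox1), which frees iron from haem, averaged 42.2 ± 14 CPM in DOX4X, 43.2 ± 5.61 CPM in DOX1X and 38.3 ± 6.48 CPM in PBS, with 62.6 CPM in DOX4X 4 and 30.9 to 38.6 CPM in the other 3 DOX4X libraries. Its interval for DOX4X, from -0.29 to 0.58, covered values on both sides of 0.

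The ferritins store iron, and both subunits were lower in DOX4X than in PBS without passing the test. Ftl1 had 782, 836, 830.0 and 878 CPM in DOX4X, 1047, 978 and 989 CPM in DOX1X, and 990.2, 982, 847 and 1037 CPM in PBS. DOX4X lay under DOX1X without overlap and overlapped PBS only through PBS 3. The log2 fold change of Ftl1 was -0.21 (SE 0.08, adjusted p = 0.27) for DOX4X against PBS, 0.06 (SE 0.08) for DOX1X against PBS and -0.27 (SE 0.08, adjusted p = 0.89) for DOX4X against DOX1X. Fth1 averaged 2211 ± 102 CPM in DOX4X, 2313 ± 143 CPM in DOX1X and 2431 ± 75.9 CPM in PBS, with DOX4X under PBS without overlap and a log2 fold change of -0.14 (SE 0.07, adjusted p = 0.44).

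The metallothioneins, small cysteine-rich proteins that bind zinc and copper, were higher on average after both schedules. Mt1 had 104, 73.9, 64.3 and 100.3 CPM in DOX4X, 109, 75.2 and 127 CPM in DOX1X, and 70.0, 63.9, 74.3 and 74.2 CPM in PBS. DOX1X lay above PBS, by a margin of under 1 CPM at the nearest pair, while DOX4X was split into a pair of libraries near 100.3 CPM or above and a pair inside the PBS range. Mt2 had 6.14, 4.62, 2.71 and 5.37 CPM in DOX4X, 4.45, 4.61 and 4.92 CPM in DOX1X, and 3.53, 3.70, 2.33 and 2.5 CPM in PBS. Again the DOX1X libraries were above all PBS libraries and DOX4X 3 lay among the controls. The log2 fold changes against PBS were 0.28 (SE 0.17, adjusted p = 0.52) for Mt1 and 0.64 (SE 0.26, adjusted p = 0.30) for Mt2 in DOX4X, and 0.55 (SE 0.19, adjusted p = 0.60) and 0.63 (SE 0.27, adjusted p = 0.67) for the same genes in DOX1X. With flow cell as a term, Mt1 was at -0.19 and Mt2 at 0.52 for DOX4X.

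Mt1 and Mt2 lie side by side on chromosome 8, with start sites 6471 bases apart on the same strand in RefSeq's GRCm38.p6 annotation. Their promoters are shown because both genes were higher than PBS in all 3 DOX1X libraries; the windows are chr8:94178839-94179138 for Mt1 and chr8:94172368-94172667 for Mt2. The capitals mark the core of the metal response element, the site bound by the zinc-sensing factor MTF1, searched as TGCACNC or TGCGCNC on either strand.
Mt1: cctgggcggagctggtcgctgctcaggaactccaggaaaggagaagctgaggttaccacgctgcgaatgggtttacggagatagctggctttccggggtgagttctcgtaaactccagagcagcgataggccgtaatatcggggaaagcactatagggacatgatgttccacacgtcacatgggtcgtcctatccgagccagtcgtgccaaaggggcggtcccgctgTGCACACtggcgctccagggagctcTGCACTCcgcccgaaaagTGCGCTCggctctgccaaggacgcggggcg
Mt2: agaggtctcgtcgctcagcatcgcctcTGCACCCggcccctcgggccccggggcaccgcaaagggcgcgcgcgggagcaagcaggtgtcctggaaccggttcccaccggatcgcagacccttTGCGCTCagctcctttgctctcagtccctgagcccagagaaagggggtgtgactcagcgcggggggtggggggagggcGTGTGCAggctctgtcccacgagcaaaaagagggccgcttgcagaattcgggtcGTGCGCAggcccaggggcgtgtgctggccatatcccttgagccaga
The core was found 3 times for Mt1, at -23, 3 and 21 from the start site, and 4 times for Mt2, at -223, -128, -50 and 5. It was present in 25.7% of all 32851 promoters and in 10 of the 37 promoters of the listed genes. These belonged to 9 of the 30 genes with a promoter in the table.

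**Figure D3:**
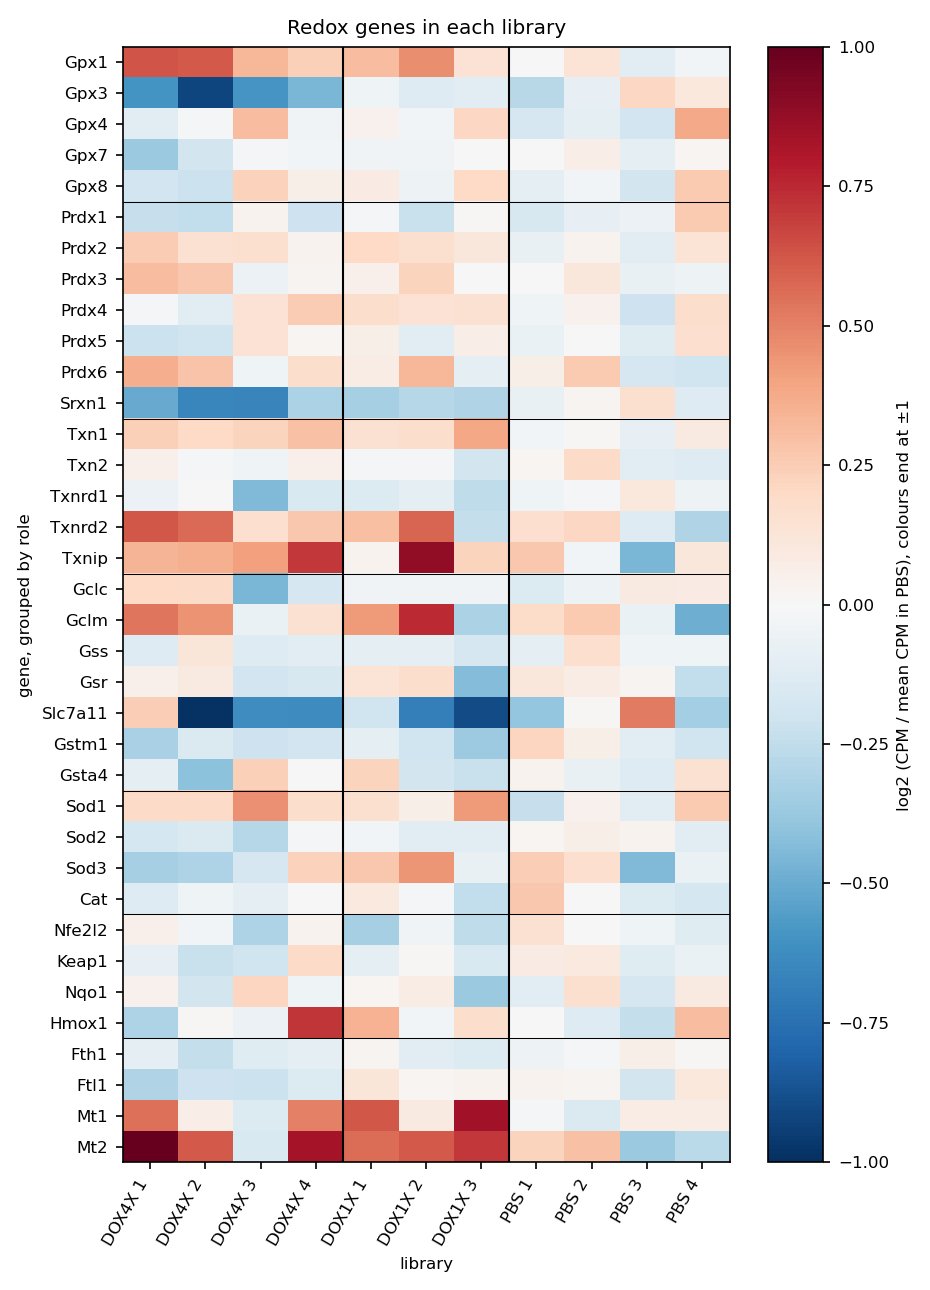
Log2 of the CPM in each library over the mean CPM in PBS, for the 36 genes ordered by role (rows) and the 11 libraries (columns); red is above the PBS mean and blue below, and colours end at 1 and -1. The rows of Gpx3 and Srxn1 are blue in all 4 DOX4X libraries and those of Gpx1 and Txn1 red in all 7 doxorubicin libraries, while most other rows vary within groups.

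After a single dose, none of the 36 genes passed the test against PBS, where 0.00561% of all genes did. At an unadjusted p under 0.05 there were 5 of the 36, or 13.9%, against 7.16% of all genes. Txn1, Mt1, Gpx1 and Mt2 were higher, where 3.42% of all genes were, and Srxn1 was lower, where 3.74% were. The groups did not overlap for 6 genes, or 16.7%, against 7.0% of all genes: the 4 higher ones just named (3.18% of all genes), and Srxn1 and Txnrd1 on the lower side (3.82%). The comparisons of DOX4X and of DOX1X with PBS share the PBS libraries, so values that point the same way in both are not independent. The within flow cell 1 values, from DOX1X 1 and 2 against PBS, were 0.38 for Gpx1, -0.31 for Srxn1, 0.38 for Mt1, 0.58 for Mt2 and 0.52 for Txnip.

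Between the schedules, none of the 36 genes passed, where 0.00561% of all genes did. At an unadjusted p under 0.05 there were 3, or 8.33%, against 4.36% of all genes, and all 3 were lower in DOX4X (Gpx3, Ftl1 and Srxn1), where 2.13% of all genes were, while none was higher, where 2.23% were. Gpx3 and Ftl1, 2 of the 36, did not overlap between the schedules, against 5.98% of all genes (2.79% lower and 3.19% higher). For 34 of the 36 the log2 fold change lay within 0.3 of 0. Sod3 was at -0.35 (SE 0.18, adjusted p = 1.00), Mt1 at -0.27 (SE 0.19, adjusted p = 1.00) and Nfe2l2 at 0.15 (SE 0.11, adjusted p = 1.00). Within flow cell 2, where DOX1X 3 was the only library of its group, the values for DOX4X against DOX1X were -0.52 for Gpx3, -0.25 for Ftl1, -0.22 for Srxn1 and -0.05 for Sod3. The endothelial markers were higher in DOX4X than in DOX1X for 16 of 17 genes, and the part of those cells in the values of Gpx3, Ftl1 and Srxn1 was not tested.

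**Figure D4:**
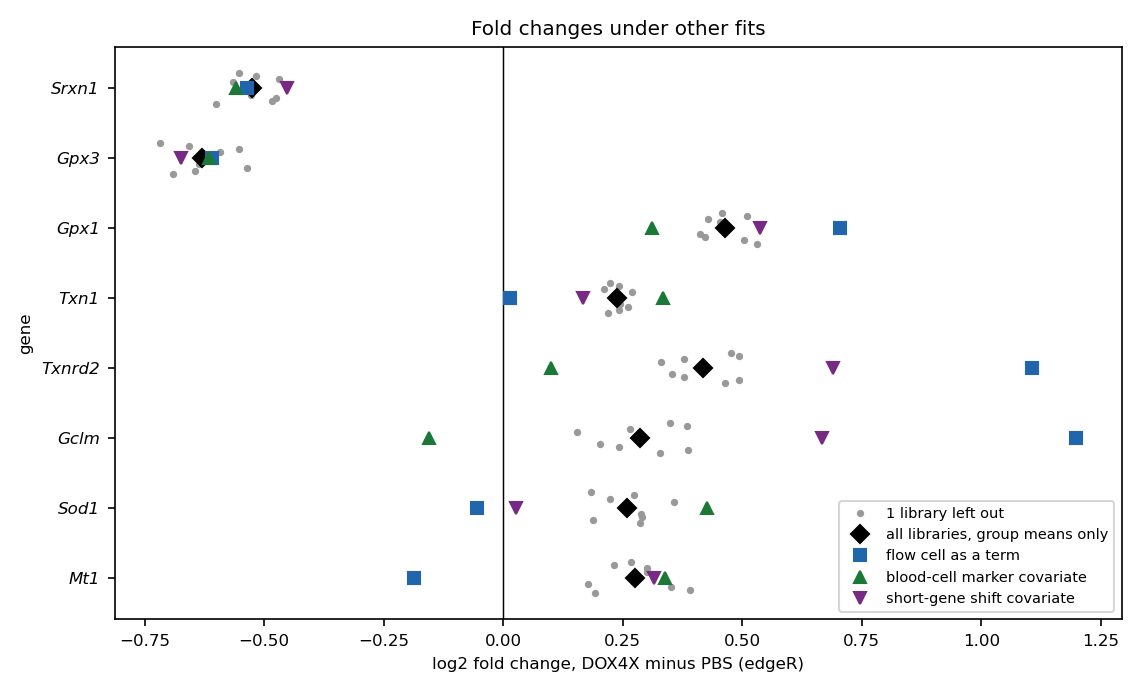
Log2 fold change for DOX4X minus PBS of 8 genes under other edgeR fits: all libraries with group means (diamond), each library left out (grey points), flow cell as a term (square), a blood-cell marker covariate (upward triangle) and a short-gene shift covariate (downward triangle). Srxn1 (-0.60 to -0.45) and Gpx3 (-0.72 to -0.54) stay on one side, whereas Gclm reaches from -0.15 to 1.20 and Txnrd2 from 0.10 to 1.11.

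How far the values depended on which libraries and covariates entered the fit differed between the genes. Over 21 other fits of DOX4X against PBS, 17 of the 36 genes kept the sign of their log2 fold change and 19 did not. Srxn1 ran from -0.60 to -0.45, Gpx3 from -0.72 to -0.54 and Gpx1 from 0.31, with the blood-cell marker score in the fit, to 0.70, with flow cell as a term. The sign of Gclm, Sod1, Mt1, Gsr (0.55 with flow cell) and Nqo1 was among those that changed. For DOX1X against PBS 22 of the 36 kept their sign over 22 other fits, and for DOX4X against DOX1X 15 did.

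Around the 36 genes, 8 lists of related redox and metal genes held 169 others, of which 154 were tested. For DOX4X against PBS, 1 of the 154 passed, beside 0.146% of all genes. This was Qsox1, a sulfhydryl oxidase that makes disulfides and releases hydrogen peroxide. Qsox1 had 91.3, 86.3, 97.6 and 101 CPM in DOX4X, 124, 125 and 116 CPM in DOX1X, and 156, 154, 189.9 and 144 CPM in PBS. Its log2 fold change was -0.78 (SE 0.09, adjusted p = 0.019), and no 2 of the 3 groups overlapped. The call held in 14 of 21 other fits and was lost when DOX4X 1, DOX4X 2, DOX4X 3 or DOX1X 1 was left out (adjusted p = 0.11, 0.11, 0.059 and 0.056), with the compared groups alone (0.054), with flow cell as a term (0.31) and with the short-gene shift (0.068). DESeq2 called 11 of the 154 in this comparison, beside 4.02% of all genes. Of the 11, 2 were higher (Mgst2 and Mgst3) and 9 lower (Qsox1, Nfe2l1, Cp, Msrb3, Txndc5, Selenot, Slc39a14, Ggt5 and Hfe). Its 590 calls over all genes were also mostly lower, with 178 higher and 412 lower. By limma-voom the only call was Qsox1, beside 0.314% of all genes. At an unadjusted p under 0.05 by edgeR, 10 of the 154 were higher in DOX4X, or 6.49%, where 6.0% of all genes were, and 25 were lower, or 16.2%, where 7.85% of all genes were. With flow cell as a term, 8.44% of the 154 were higher and 3.25% lower at this threshold. With the short-gene shift in the fit, 15.6% were higher and 13.6% lower. In neither fit was the lower share the larger one. The flow cell term rests on DOX1X 3 against DOX1X 1 and 2. The short-gene shift averaged 0.07 in DOX4X and -0.08 in PBS, so that it differed between the groups. The causes of these shares were not tested. The median log2 fold change of the 154 was -0.02. For DOX1X against PBS none of the 154 passed by edgeR or limma-voom, while DESeq2 called Mgst2, which was higher, and Qsox1, which was lower (adjusted p = 0.0498), beside 0.312% of all genes. At an unadjusted p under 0.05, 4 were higher in DOX1X, or 2.6%, and 11 lower, or 7.14%, where 3.42% and 3.74% of all genes were. Between the schedules none passed by any of the 3 tools, with 4 higher (2.6%) and 2 lower (1.3%) at an unadjusted p under 0.05, where 2.23% and 2.13% of all genes were.

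Among the other genes of glutathione metabolism, the microsomal glutathione transferase Mgst2 had higher values after both schedules, which passed DESeq2's test and not edgeR's. It had 3.22, 3.04, 3.82 and 2.48 CPM in DOX4X, 3.79, 2.46 and 2.86 CPM in DOX1X, and 1.14, 1.27, 1.62 and 1.63 CPM in PBS. All doxorubicin libraries were above all PBS libraries, with log2 fold changes of 1.15 (SE 0.23, adjusted p = 0.091) for DOX4X and 1.10 (SE 0.24, adjusted p = 0.52) for DOX1X by edgeR. DESeq2 gave Mgst2 adjusted p-values of 0.00077 for DOX4X and 0.019 for DOX1X. Its relative Mgst3 was at 0.58 (SE 0.15, adjusted p = 0.15) for DOX4X against PBS, with 22.1 to 28.3 CPM in DOX4X and 13.7 to 20.5 CPM in PBS. The DESeq2 adjusted p of Mgst3 was 0.018, and a term for flow cell put its log2 fold change at 1.02 (adjusted p = 0.32). In the list of thioredoxin-fold and methionine sulfoxide genes, 5 of 17 were lower in DOX4X at an unadjusted p under 0.05, where 7.85% of all genes were, and none was higher, where 6.0% were. They included Msrb3 at -0.34 (SE 0.09, adjusted p = 0.15) and Txndc5, a disulfide isomerase, at -0.32 (SE 0.10, adjusted p = 0.19), with DESeq2 adjusted p-values of 0.020 and 0.045. With flow cell as a term Msrb3 was at -0.16 and Txndc5 at 0.01.

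Of 16 genes of NADPH supply, none passed the test for DOX4X against PBS. At an unadjusted p under 0.05, 4 of the 16 were lower, where 7.85% of all genes were, and none was higher, where 6.0% were. Me3, a mitochondrial malic enzyme, was at -0.45 (SE 0.17, adjusted p = 0.27), and at -0.26 with the blood-cell marker score and -0.97 with flow cell in the fit. The pentose phosphate enzymes Pgd and G6pdx were at -0.39 (SE 0.14, adjusted p = 0.25) and -0.26 (SE 0.09, adjusted p = 0.25) for DOX4X against PBS, and at -0.76 and -0.16 once flow cell entered the fit. Nfe2l1, the NRF2 relative that controls proteasome genes, was at -0.41 (SE 0.09, adjusted p = 0.12) for DOX4X and -0.23 (SE 0.10, adjusted p = 0.68) for DOX1X, and the DOX4X value passed with DESeq2 (adjusted p = 0.0045). In iron handling, the ferroxidase ceruloplasmin (Cp) was at -0.31 (SE 0.08, adjusted p = 0.15) and the metal importer Slc39a14 at -0.39 (SE 0.11, adjusted p = 0.17) for DOX4X, with all 4 DOX4X libraries under all 4 PBS libraries for both. DESeq2 called both (adjusted p = 0.0072 and 0.042). A term for flow cell put Cp at -0.18. Blvrb, a biliverdin reductase plentiful in red cells, was at 0.57 (SE 0.18, adjusted p = 0.21), beside an erythroid marker list of which 14 of 15 tested genes were higher in DOX4X than in PBS. With the blood-cell marker score in the fit Blvrb was at 0.31 (adjusted p = 0.50). That score itself differed between the groups, and the part of red cells in the Blvrb value was not tested. Selenot, a selenoprotein of the endoplasmic reticulum, was at -0.34 (SE 0.09, adjusted p = 0.17, and 0.042 with DESeq2) and the nuclear selenoprotein gene Selenoh at 0.30 (SE 0.12, adjusted p = 0.29) for DOX4X.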

How the data were processed

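The deposited values were raw counts of reads per gene, which the authors made with STAR 2.7.9a and featureCounts 2.0.1 on GRCm39 among the tools named, per the submitters' processing notes (also FastQC 0.11.5, MultiQC 1.7, Trim Galore 0.6.6 and SAMtools 1.17). No source used here gives the annotation, the strand setting or the handling of multi-mapping reads. Libraries were SMART-Seq v4 Plus cDNA, per the labels.

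Genes were filtered with filterByExpr and scaled with TMM in edgeR 4.0.16 (R 4.3.3), which kept 17838 of 24718 genes and at least 99.9% of the counts of each of the 11 libraries. Group means were fitted over all 11 libraries and compared by quasi-likelihood F tests (two-sided) in edgeR; p was adjusted by the Benjamini-Hochberg method over the 17838 genes, with 0.05 as threshold. An SE is the fold change divided by the root of F, and intervals were at 95%. CPM values are scaled by TMM. Values per kilobase used exon lengths of GENCODE M21, an annotation of another build than the counts. The procedure was tested on simulated data. Replicate correlations within groups were 0.967 to 0.981, so that no library was a copy of another in its own group.

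Members and lists were chosen with earlier results of these data known. Up to 6 members with the smallest p per comparison are given with every library. The genes named from related lists were among the 3 with the smallest p of their list. Some of those 3 are left out, and no gene of the zinc and copper list is given. Alternatives were DESeq2 1.42.0, limma-voom with quality weights (limma 3.58.1), RLE factors, no filter, a stricter filter (5 CPM in 3 libraries), a fit of just the compared groups, a replicate block, a blood-cell marker score, flow cell as a term or a single flow cell, and each library left out. A covariate for the shift between genes under 1500 and over 5000 bases of exon (mean of at least 10 CPM) was added after seeing the data.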

Additional observations from a re-analysis of the deposited data

Results flagged for a closer look

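Dixon's test was applied to 72 sets of 4 libraries, each of the 36 genes in DOX4X and in PBS. In 6 sets, 1 library stood far from the other 3, and each time it was the highest. For a far library at either end, chance alone gives about 1 set in 20. The sets share libraries and are not independent. Gpx4 was at 208 CPM in PBS 4, the library whose labels disagree, and at 140.3 to 149.5 CPM in the other PBS libraries. DOX4X 3 was set apart for Prdx1, at 541 CPM beside 444 to 456 CPM, and for Sod1, at 48.3 CPM beside 39.9 to 40.3 CPM. The same DOX4X library had the highest short-gene shift of all libraries, 0.22, and the part of that shift in these values was not tested. Gss was at 17.0 CPM in DOX4X 2, beside 14.3 to 14.4 CPM in the other DOX4X libraries, and at 17.5 CPM in PBS 2, beside 14.6 to 15.1 CPM. Txnrd1 was at 133 CPM in PBS 3, beside 119 to 122 CPM in the other PBS libraries.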

How the results depend on the processing

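No gene of the 36 passed in DOX1X against PBS or in DOX4X against DOX1X under any setting tried. For DOX4X against PBS the count of 0 became 3 with DESeq2 (Gpx1, Gpx3 and Srxn1) and 1 with limma-voom (Srxn1), and ran from 0 to 1 as each library was left out (1 without PBS 4). The count over all genes was less stable. For DOX4X against PBS, 26 with edgeR, it was 590 with DESeq2, 56 with limma-voom, 1 with the compared groups alone, 5 with the blood-cell marker score, 6 with flow cell as a term, 0 with the short-gene shift, and 0 to 80 as each library was left out (0 without DOX4X 1, 2 or 3, 80 without PBS 4, 47 without DOX1X 3). For DOX1X against PBS, 1 with edgeR, it was 49 with DESeq2, 5 within flow cell 1 and 1 to 2 as each library was left out. For DOX4X against DOX1X, 1 with edgeR, it was 27 with DESeq2 and 1 to 2 as each library was left out. The causes were not tested. With the replicate number as a block, 10 genes passed for DOX4X against PBS, 6 for DOX1X against PBS and 2 for DOX4X against DOX1X, and none of the 36; the numbers did not pair the libraries, since 3 of 10 same-numbered pairs had a correlation of deviations over 0.1 and 4 libraries correlated best with their own number. DOX4X and PBS share no flow cell, so no value within a flow cell exists for them.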
